A study of Homo sapiens with 2 samples.

Results

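Interferon beta and 5 interferon-stimulated genes were followed in SK-NEP-1 cells after treatment with LBH589. The genes are IFNB1, IRF9, OAS1, IFI44, BST2 and EIF2AK2. They were chosen by name, with earlier results of the same arrays known, and all of their probes in the study's lists of changed transcripts were read, which gave 9 probes of 6 genes out of 1741 genes named in the rows of those lists used here. All 9 probes came from the list of down-regulated transcripts, so their direction was fixed by that choice and is given as a description. The established human line SK-NEP-1 served the study as a model of Wilms tumor, the embryonal kidney tumor of childhood. The drug LBH589, also called panobinostat, blocks histone deacetylases, which take acetyl groups off histones and other proteins. RNA of cells treated with 100 nM LBH589 for 24 h was hybridized to 1 array, and RNA of cells treated with an equal volume of DMSO, the solvent of the drug, was hybridized to another. Both were 1-colour arrays of long noncoding RNAs and mRNAs. With 1 array for each condition there is no replicate error and no test between conditions, and precision is limited by the number of arrays. In RNA of a whole culture, fewer cells that express a gene and less RNA of it per cell cannot be told apart.

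Interferon beta is a secreted cytokine that cells make when sensors such as RIG-I and MDA5 meet foreign nucleic acid. It binds a receptor made of IFNAR1 and IFNAR2, and the kinases JAK1 and TYK2 then activate STAT proteins, which join IRF9 to form the complex ISGF3. ISGF3 binds the interferon-stimulated response element, a repeat of GAAA in the promoters of antiviral genes. Among these, OAS1 makes the short adenylate chains that switch on RNase L, EIF2AK2 encodes the kinase PKR, which stops translation on meeting double-stranded RNA, and BST2 (tetherin) holds budding virus particles at the cell surface. IFI44 is a widely used marker of the interferon response.

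The probe sequences are shown for OAS1 and EIF2AK2, because these genes were read by several probes and the overlap between probes decides how many separate measurements they give. The sequences are those of the array's 60-base probes, 5′ to 3′, and capitals mark the longest run that a probe has in common with another probe of the same gene, where that run is 10 bases or longer.
OAS1 isoform 1, NM_016816: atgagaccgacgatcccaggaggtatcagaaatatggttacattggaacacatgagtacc
OAS1 isoform 2, NM_002534: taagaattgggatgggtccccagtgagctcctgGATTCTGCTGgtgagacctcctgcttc
OAS1 isoform 3, NM_001032409: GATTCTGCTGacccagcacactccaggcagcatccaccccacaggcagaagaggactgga
EIF2AK2 isoform a, NM_001135651: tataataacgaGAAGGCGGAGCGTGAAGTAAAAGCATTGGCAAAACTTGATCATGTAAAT
EIF2AK2 isoform b, NM_001135652: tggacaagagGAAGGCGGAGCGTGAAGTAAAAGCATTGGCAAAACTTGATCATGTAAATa
The 3 OAS1 probes had at most 10 bases in common and read different stretches of the transcripts. The pair for EIF2AK2 had 49 of 60 bases in common and therefore does not give separate measurements. Between different genes of the group the longest run in common was 9 bases.

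The promoter stretches are shown so that the letters of the known response element, where a gene has them, can be seen. Each is part of a window from 250 bases before to 50 bases after the transcription start in RefSeq (GRCh38.p14), on the strand of the gene. Capitals mark the matched GAAA repeat, or in IRF9 its only match. A further match in the BST2 stretch, to TTCNNNGAA, is in capitals only where it overlaps the repeat.
IFNB1, chr9:21078004-21078054, minus strand: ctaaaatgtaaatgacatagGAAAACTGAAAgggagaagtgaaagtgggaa
IRF9, chr14:24161182-24161230, plus strand: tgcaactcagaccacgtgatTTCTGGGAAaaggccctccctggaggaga
OAS1, chr12:112906925-112906971, plus strand: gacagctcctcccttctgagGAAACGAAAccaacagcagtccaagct
IFI44, chr1:78649751-78649798, plus strand: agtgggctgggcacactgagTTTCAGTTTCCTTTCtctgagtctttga
BST2, chr19:17405725-17405780, minus strand: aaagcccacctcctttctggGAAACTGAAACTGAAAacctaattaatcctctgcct
EIF2AK2, chr2:37156971-37157006, minus strand: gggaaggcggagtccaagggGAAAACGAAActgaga
The motifs searched on both strands were GAAA repeats with a spacer of 1, 2 or 3 bases (GAAANGAAA, GAAANNGAAA and GAAANNNGAAA) and TTCNNNGAA, the palindrome known as GAS that binds STAT dimers. GAAANNGAAA is the core of the response element, and the other spacings were added after these promoters had been read. The core GAAANNGAAA was found in 3 of the 6 genes (BST2, EIF2AK2 and IFI44) and in 4.38% of all 27305 genes with a window. With the added spacings 5 of the 6 had a repeat and IRF9 had none, and 10.5% of all genes, or 8.68% of all 35116 windows, had one. Since the spacings were taken from these promoters, the second count is a description of them.

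The matches differed in spacing and place. In BST2 a pair of overlapping GAAANNGAAA repeats lay at -130 to -121 and -124 to -115 from the start, the first of them overlapping a TTCNNNGAA at -136 to -128, and a second TTCNNNGAA lay at -58 to -50. In EIF2AK2 a GAAANNGAAA crossed the start, from -6 to 4. In IFI44 the repeat was on the opposite strand, with GAAANNGAAA at -18 to -9 overlapping GAAANGAAA at -12 to -4. That gene has 2 annotated starts, and from the other one the same letters lie at -60 to -51 and -54 to -46. OAS1 had the repeat with a 1-base spacer at -17 to -9 and a TTCNNNGAA at -168 to -160. In IFNB1 the repeat had a 3-base spacer, at -92 to -82, within the stretch known as its virus-inducible enhancer, and a TTCNNNGAA lay at -218 to -210. IRF9 had only a TTCNNNGAA, at -63 to -55. Among all windows GAAANGAAA was found in 3.12%, GAAANNGAAA in 3.57%, GAAANNNGAAA in 2.86% and TTCNNNGAA in 7.66%. A match is a run of letters and does not show that a factor binds there.

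**Figure D1:**
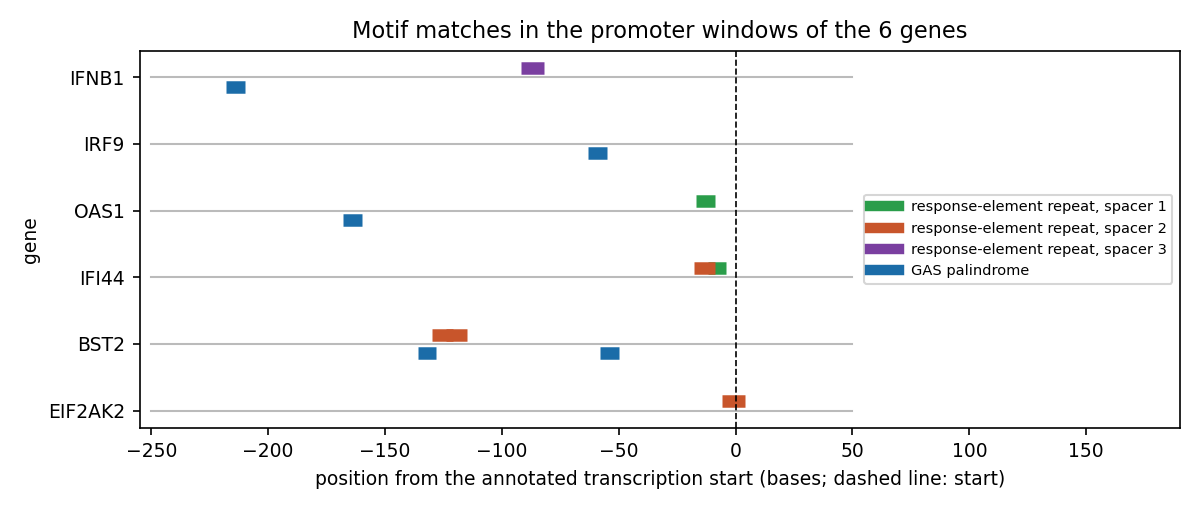
Position of each motif match (coloured bars) in the promoter windows of the 6 genes, in bases from the annotated transcription start, with the first window of IFI44 drawn. GAAA repeats sit above the lines and GAS palindromes below: 5 of 6 genes have a repeat, at -130 in BST2 and at -6 in EIF2AK2 for example, and IRF9 has only the palindrome at -63.

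Signals are given as the scanner's processed signal, with the local background subtracted. For the comparison between arrays, the signals of an array were divided by the 75th percentile of its probes, which was 189 with DMSO and 108 with LBH589, and the difference is LBH589 minus DMSO on the log2 scale. A probe counts as well above background by the flag of the scanner software, and the lowest signal that carried the flag was 21.3 with DMSO and 14.5 with LBH589. Of 58921 probes, 38885 carried it with DMSO and 37308 with LBH589, and none was saturated. Where 1 array gave no such signal, its side was set to the higher of the probe's own signal and that lowest signal, and the fold is written as "at least". The error beside a difference is the software's error of the 2 spots, and it leaves out the variation between cultures.

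All 9 probes were at least 2-fold lower after LBH589, and all 9 were at least 5-fold lower, or 7 of 9 with normexp on median spot signals followed by quantile normalization. Among the 41574 probes that were well above background with DMSO, LBH589 or both, 10.2% were at least 2-fold lower and 1.65% at least 5-fold lower. Since the genes were taken from a list of down-regulated transcripts, nothing is read from that contrast. On the DMSO array the 9 signals ran from 293 to 3455, and on the LBH589 array from 6.04 to 131. The median difference was -4.18, or 18.1-fold lower, with a range from -6.79 (111-fold) to -3.34 (10.1-fold), while the median over all probes was -0.014. Of the 9 probes, 8 were well above background on both arrays.

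**Figure D2:**
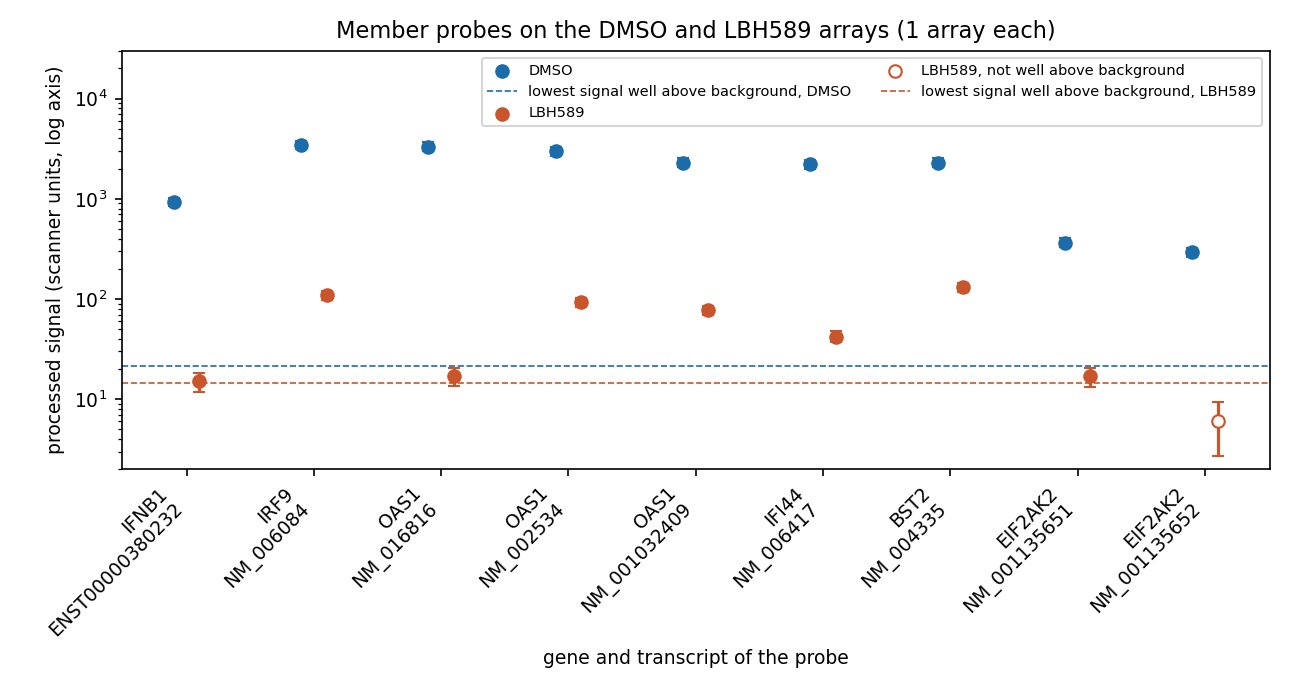
Processed signal (log axis) of the 9 probes on the DMSO array (blue) and the LBH589 array (orange), 1 array each. Bars are the scanner software's error of the spot, dashed lines mark the lowest signal well above background (21.3 and 14.5), and the open symbol is the EIF2AK2 probe at 6.04 that was not well above background. Each orange point lies below its blue point, and the LBH589 signals of IFNB1, 1 OAS1 probe and 1 EIF2AK2 probe lie just above the dashed line.

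IFNB1 itself, the ligand, was read by 1 probe, for ENST00000380232 (hg19 chr9:21077104-21077943, minus strand, a gene without introns). Its signal was 933 in DMSO-treated cells and 15.1 after LBH589. The difference was -5.15 ± 0.35 (error of the spots), or 35.6-fold lower, and -3.10 with normexp on median spot signals followed by quantile normalization. The transcript was therefore well measured without the drug, and after LBH589 its signal was close to the lowest one counted as above background, 14.5, where the error of 3.36 is a large share of the signal. IFNB1 was the only one of 21 interferon ligands on the list of genes examined that had a probe in the rows used. The other 20 ligands were not analysed here.

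IRF9, the DNA-binding subunit of ISGF3, was read by 1 probe for NM_006084 (hg19 chr14:24630422-24635774, plus strand). The signal was 3455 in DMSO-treated cells and 110 after LBH589. The difference was -4.18 ± 0.21, or 18.1-fold lower, with both signals well above background. The kinases JAK1 and TYK2, which act before it, had no probe in the rows used and were not analysed here.

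OAS1, the synthetase upstream of RNase L, was read by 3 probes, each annotated to one of 3 isoforms that differ at the 3′ end (hg19 chr12, from 113344739, plus strand). Which isoforms each probe binds was not tested, so the values are those of probes and not of single isoforms. The probe for isoform 1 (NM_016816, to 113357712) had a signal of 3314 with DMSO and 17.2 with LBH589. The difference was -6.79 ± 0.33, or 111-fold lower, with the LBH589 signal near the lowest one counted as above background. The probe for isoform 2 (NM_002534, to 113355831) had signals of 2965 and 93.5 and was 18.2-fold lower (-4.19 ± 0.21). The probe for isoform 3 (NM_001032409) had signals of 2296 and 77.1 and was 17.1-fold lower (-4.10 ± 0.21). The isoform 2 and isoform 3 probes thus gave almost the same difference, 0.091 apart with an error of 0.30, though they had only 10 bases in common. The isoform 1 probe was lower by a further 2.61 (6.08-fold, error 0.39) than the isoform 2 probe and by 2.70 (6.48-fold) than the isoform 3 probe. With normexp on median spot signals followed by quantile normalization the gaps were 1.11 (2.16-fold) and 1.28 (2.43-fold). As reported, each exceeded the error of the spots, and whether it would exceed the variation between cultures was not tested.

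EIF2AK2, the gene of the kinase PKR (hg19 chr2, from 37332284, minus strand), was read by 2 probes. The probe for isoform a (NM_001135651, to 37384190) had a signal of 365 with DMSO and 16.9 with LBH589, and was 12.4-fold lower (-3.63 ± 0.35). The probe for isoform b (NM_001135652, to 37374965), which shares 49 bases with it, had signals of 293 and 6.04, the second not well above background, and was at least 11.6-fold lower. With normexp on median spot signals followed by quantile normalization the differences of the 2 probes were -1.81 and -1.76, both less than 5-fold. The sequence pair printed above shows why the 2 probes count as 1 measurement. EIF2AK2 was also the only gene of the group for which the array's annotation names a further transcript for a probe, on 1 of the 9 probes.

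BST2, which encodes tetherin, was read by 1 probe for NM_004335 (hg19 chr19:17513755-17516384, minus strand). Its signals were 2299 with DMSO and 131 with LBH589, and the difference was -3.34 ± 0.21, or 10.1-fold lower. This was the difference nearest to 0 in the group, though with normexp on median spot signals followed by quantile normalization both EIF2AK2 probes lay nearer to 0 than BST2, at -2.91. IFI44 was read by 1 probe for NM_006417 (hg19 chr1:79115477-79129763, plus strand), with signals of 2216 and 42.2. It was 30.2-fold lower (-4.92 ± 0.23).

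Ordered by difference, the isoform 1 probe of OAS1 stood lowest, followed by IFNB1, IFI44, the isoform 2 probe of OAS1, IRF9, the isoform 3 probe of OAS1, the isoform a probe of EIF2AK2 and BST2. The isoform b probe of EIF2AK2 has no place in this order, since its difference is a bound. Not all neighbours in this order can be ranked. IFNB1 and IFI44 differed by less than the error of the spots, and so did IRF9 and the isoform 2 and isoform 3 probes of OAS1, and likewise the isoform a probe of EIF2AK2 and BST2.

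**Figure D3:**
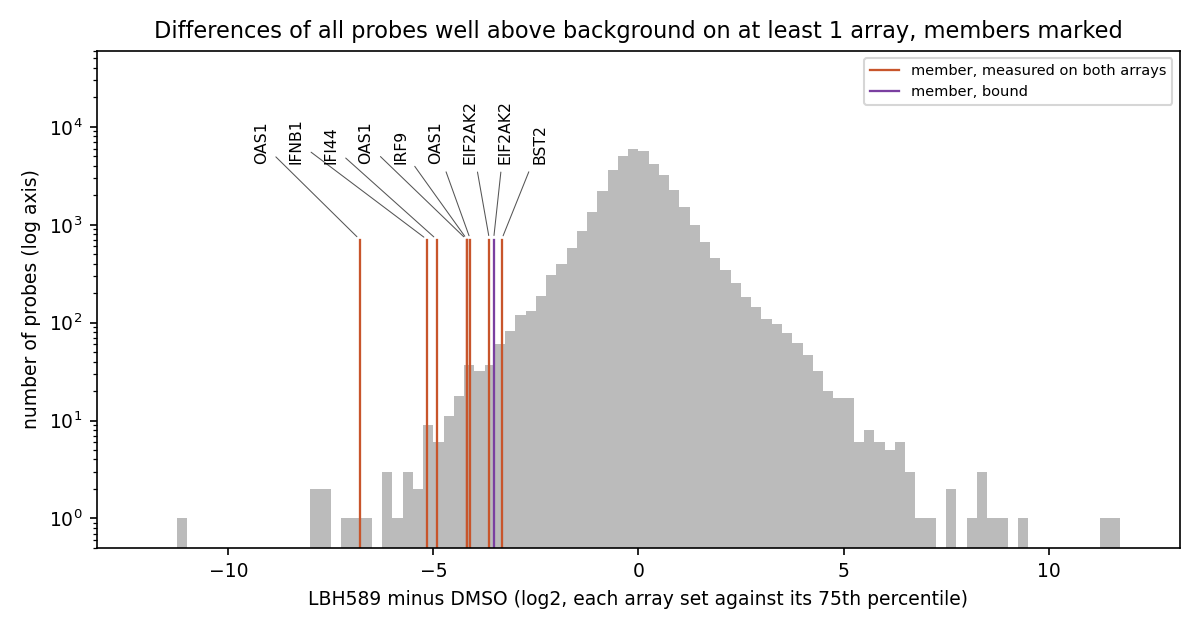
Number of probes (log axis) by LBH589 minus DMSO difference in log2 units for the 41574 probes that were well above background with DMSO, LBH589 or both, with the 9 probes of the 6 genes as vertical lines (orange measured on both arrays, purple a bound). The lines lie between -6.79 and -3.34, in the lower tail, where the choice of the genes placed them.

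The wider interferon pathway was followed through a list of 225 genes in 10 roles, from ligands and receptors to antiviral effectors. Besides the 6 genes above, 34 of the other 219 had a probe in the rows used, with 38 probes, and the other 185 were not analysed here. Those rows hold only transcripts that the study listed as changed, 952 as down-regulated and 1002 as up-regulated. That each gene moved is therefore fixed by the selection. Of the 38 probes, 27 were at least 2-fold lower and 6 at least 2-fold higher, where 10.2% of all probes were at least 2-fold lower and 12.3% at least 2-fold higher. A further 4 were lower and 1 was higher by less than 2-fold with the dim side at its bound. At 5-fold, 23 were lower and 4 higher, where 1.65% of all probes were lower and 2.49% higher. The median was -2.50, beside -0.014 for all probes, and the range was -5.20 to 5.63. Of the 38 probes, 19 were measured on both arrays and 19 gave a bound.

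The antiviral effectors with a probe were all lower, 13 genes of 41 with 14 probes, 12 of them at least 2-fold and 10 at least 5-fold, with a median of -2.80 in which 9 of the 14 values are bounds. Over all probes 10.2% were at least 2-fold and 1.65% at least 5-fold lower. The other 28 effectors had no probe among the rows of changed transcripts, so the counts describe the listed probes and not the role. IFIT1, which binds viral RNA that lacks the host cap, had signals of 926 with DMSO and 12.3 with LBH589, and was at least 36.6-fold lower. IFITM1, a membrane protein that hinders virus entry, had signals of 9681 and 344 and was 16.2-fold lower (-4.02). APOBEC3C and APOBEC3G, cytidine deaminases that mutate retroviral DNA, were at least 14.9-fold and 8.71-fold lower, with signals of 377 and 13.5 and of 708 and 46.7. These genes belong to families of close relatives, among which cross-hybridization was not tested. MX1, a GTPase that blocks viral nucleocapsids, was at least 8.58-fold lower, from 217 to 3.94, and PLSCR1, a phospholipid scramblase, was 7.37-fold lower, from 7936 to 619.

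Of the other interferon-stimulated genes, 11 of 69 had a probe. There were 9 lower and 2 higher, with a median over their 14 probes, 7 of them bounds, of -2.64. Of the 14 probes, 10 were at least 2-fold lower and 1 at least 2-fold higher. Over all probes these shares were 10.2% and 12.3%. The other 58 genes had no probe among the rows of changed transcripts, so the counts describe the listed probes and not the role. NMI, an adaptor that binds STAT proteins, had signals of 6560 with DMSO and 159 with LBH589 and was 23.7-fold lower (-4.56). SP110, a nuclear body protein, was read by 2 probes with 5 bases in common. The first had signals of 14516 and 493 and was 16.9-fold lower, and the second, with signals of 161 and 5.70, was at least 6.37-fold lower. For EPSTI1 the 2 probes gave at least 21.1-fold (569 and 15.5) and 11.5-fold (1129 and 56.6). The inflammatory caspase CASP4 was lower by 8.24-fold and 7.58-fold with 2 probes, which were 0.12 apart with an error of 0.32. SP100, another nuclear body protein, was 6.10-fold lower, from 4198 to 396, and PARP9, a partner of the ubiquitin ligase DTX3L, was at least 5.20-fold lower, from 131 to 8.52. In the opposite direction, IL15, a cytokine of natural killer and T cells, had signals of 4.25 with DMSO, too dim to count as above background, and 142 with LBH589, and was at least 11.6-fold higher. LGALS9, a galectin, was at least 1.59-fold higher, from 6.83 to 19.5.

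The steps that lead to interferon beta and carry its signal were represented by few probes. Of 22 sensors and adaptors, 3 had a probe and all were at least 2-fold lower, where 10.2% of all probes were. These 3 came from the list of down-regulated transcripts, so their direction was fixed by the selection. The other 19 were not analysed here. IFI16, a sensor of DNA, had signals of 517 and 38.7 and was 7.69-fold lower (-2.94). IFIH1, which encodes the double-stranded RNA sensor MDA5, had signals of 696 and 59.4 and was 6.73-fold lower (-2.75). NLRX1, a mitochondrial regulator of this pathway, was 3.99-fold lower (-1.99), from 259 to 37.3. Of 9 factors that bind the IFNB1 enhancer, the only one with a probe was NFKB1, the p105 and p50 subunit of NF-κB, which was 4.31-fold lower, from 658 to 87.8. Of 6 receptor genes, the only one with a probe was IFNGR2, a chain of the interferon gamma receptor, which was 11.1-fold lower (-3.47), from 8646 to 448.

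The other genes of the list that were higher after LBH589 were a regulatory factor, an inhibitor of the signal and class II HLA genes. IRF8, an interferon regulatory factor of blood cells, had signals of 8.43 with DMSO, again too dim to count, and 608 with LBH589, and was at least 49.6-fold higher. SOCS1, an inhibitor of JAK kinases, was at least 4.89-fold higher, from 9.62 to 59.9, and was the only negative regulator of 7 with a probe. Of 34 genes of antigen presentation, 3 had a probe, all of them class II genes. These 3 were at least 2-fold higher, where 12.3% of all probes were. They came from the list of up-regulated transcripts, so their direction was fixed by the selection. The other 31 were not analysed here. HLA-DRA had signals of 46.1 and 403 and was 15.2-fold higher (3.93), and HLA-DQB1 had signals of 205 and 1797 and was also 15.2-fold higher (3.93). HLA-DRB5 was at least 4.54-fold higher, from 17.9 to 55.6. HLA genes resemble each other closely and differ between people, so which of the HLA-DRB and HLA-DQB genes was bound is uncertain.

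**Figure D4:**
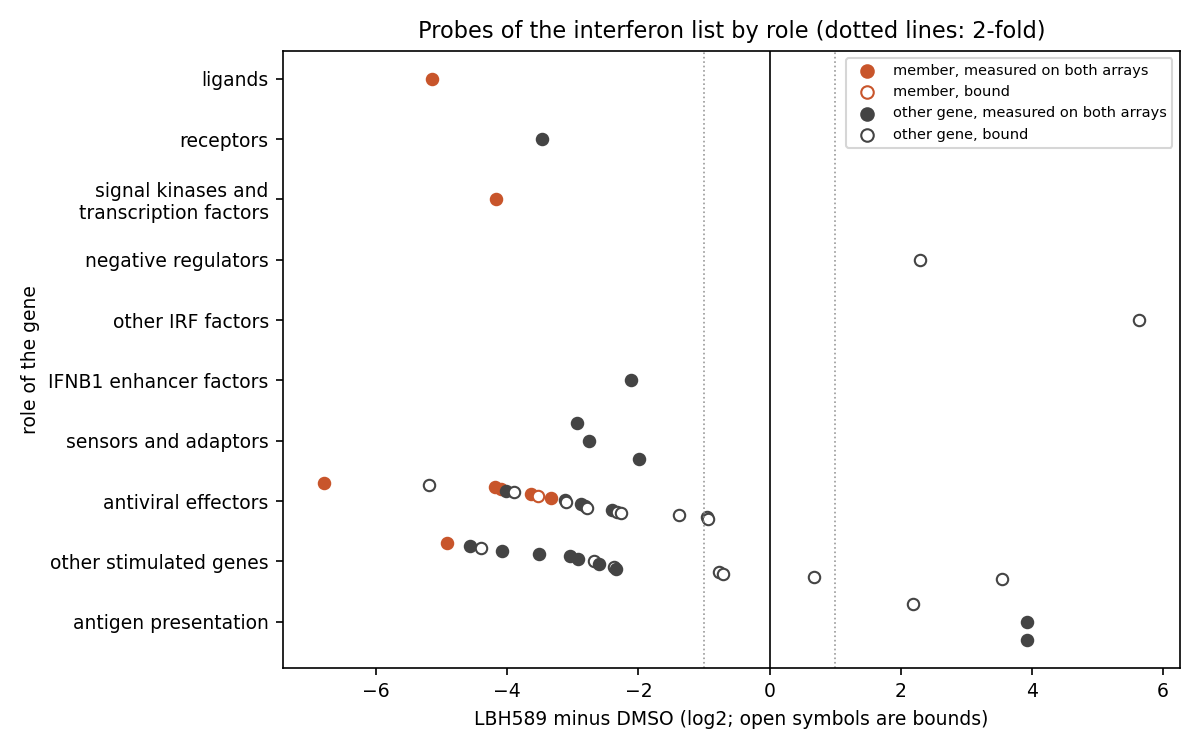
LBH589 minus DMSO difference (log2) of each probe of the interferon list, grouped by the role of its gene. Orange marks the 6 genes and dark grey the others, and open symbols are bounds. All sensors and antiviral effectors with a listed probe lie left of 0, from -6.79 in OAS1, and antigen presentation, IRF8 and SOCS1 lie right of it, up to 5.63 in IRF8.

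The promoter windows of the other genes of the list were searched in the same way. Of the 27 genes that were lower, 21 had a window in the RefSeq table and 16 of these (76.2%) had a GAAA repeat with 1 of the 3 spacings, among them IFIT1, IFITM1, MX1, NMI and IFIH1. Of the 7 genes that were higher, 5 had a window and 3 of these (60.0%) had a repeat, namely IRF8, LGALS9 and SOCS1. The share over all 27305 genes was 10.5%. The core GAAANNGAAA alone was found in 12 of the 21 (57.1%) and 2 of the 5, beside 4.38% of all genes. TTCNNNGAA was found in 8 of the 21 (38.1%) and in 0 of the 5, beside 9.38% of all genes. Many genes of the list are interferon-stimulated genes, and the known response element of such genes is a GAAA repeat.

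Long noncoding RNAs beside genes of the list were read from the study's lists of changed noncoding transcripts. The transcripts given here had 9 probes beside 7 genes, 6 lower and 3 higher, and none lay beside the 6 genes. Over all probes 10.2% were at least 2-fold lower and 12.3% at least 2-fold higher. Since the lists hold only changed transcripts, that each of these moved is fixed by the selection. The noncoding transcript of IFITM3 (NR_049759, hg19 chr11:319673-320914), which overlaps exons of the mRNA on the same strand, had signals of 27992 with DMSO and 1759 with LBH589 and was 9.15-fold lower (-3.19). Whether its probe also reads the IFITM3 mRNA was not tested. LOC100133669 and RP11-273G15.2, annotated as antisense to LY6E, were 7.65-fold and at least 4.64-fold lower. By the hg19 positions they end at 144099807 and 144099798, before the LY6E transcript read here starts at 144099902, and do not overlap it. RP11-37B2.1, which starts opposite RIPK2, was 6.54-fold and 4.94-fold lower with 2 probes. RP11-326C3.7, antisense within an intron of IFITM2, was at least 3.03-fold lower.

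The higher noncoding transcripts included 2 beside interferon receptor genes on chromosome 21. LOC100288432 (hg19 chr21:34637937-34638565), antisense to the receptor gene IFNAR2, had signals of 64.4 with DMSO and 669 with LBH589 and was 18.1-fold higher (4.17). A noncoding transcript of TMEM50B (NR_040016, hg19 chr21:34804793-34852316), antisense to IFNGR2, had signals of 462 and 1164 and was 4.38-fold higher (2.13). IFNGR2 (hg19 chr21:34775202-34809828) overlaps it and was 11.1-fold lower, so the mRNA and the antisense transcript moved in opposite directions. XLOC_007796, antisense to TDRD7, was at least 2.41-fold higher.

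The genes outside the list whose pair of scaled signals lay nearest to the median pair of the 9 probes (3.61 with DMSO and -1.36 with LBH589, log2) were GDAP1L1, G0S2, UGT3A2, TGIF1 and CNRIP1, at distances of 0.290, 0.476, 0.617, 0.660 and 0.669. Nearness is over 2 arrays, so any gene of like signal and like difference would be found. GDAP1L1, for example, had signals of 1978 and 36.9 and was 30.8-fold lower.

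The label of the cells was set against marker genes. None of the 10 Wilms tumor and nephrogenic markers looked for had a probe in the rows used, so the labelled tissue could not be checked. Of 13 markers of Ewing sarcoma, 3 had a probe, and each was well above background on the DMSO array and lower after LBH589. Over all probes 10.2% were at least 2-fold lower and 1.65% at least 5-fold lower. The rows used hold only transcripts listed as changed, so that each marker moved is fixed by the selection. NKX2-2 went from 290 to 6.42 (at least 11.5-fold lower), CCND1 from 3993 to 457 (5.02-fold) and STEAP2 from 281 to 33.6 (4.81-fold). Of 13 markers of leukocytes, which are rich in interferon-stimulated transcripts, 1 had a probe. NCAM1, which neural cells also express, had signals of 20.1 with DMSO, too dim to count, and 58.7 with LBH589, at least 4.79-fold higher. The other markers were not analysed here, and their part in the differences was not tested.

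The differences of the 6 genes were recomputed under 12 other settings. Each of the 107 values was below 0 and at least 2-fold lower, from -7.59 to -1.76. With no scaling between the arrays, the median over all probes was itself -0.81, and the differences of the 9 probes ran from -7.59 to -4.14. With quantile normalization of the processed signals they ran from -6.80 to -3.27. A further setting changed several steps together, with normexp background correction of the median spot signals, an offset of 50 and then quantile normalization, and under it they ran from -4.64 to -1.76. The probes that moved most were those whose LBH589 signals lay near or below 14.5, with the isoform 1 probe of OAS1 at -4.64, IFNB1 at -3.10 and the EIF2AK2 probes at -1.81 and -1.76. The other OAS1 probes lay at -3.53 and -3.36, and BST2 at -2.91. The order of the genes differed under this setting, since IFI44 and IRF9, at -3.80 and -3.59, were then lower than IFNB1.

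**Figure D5:**
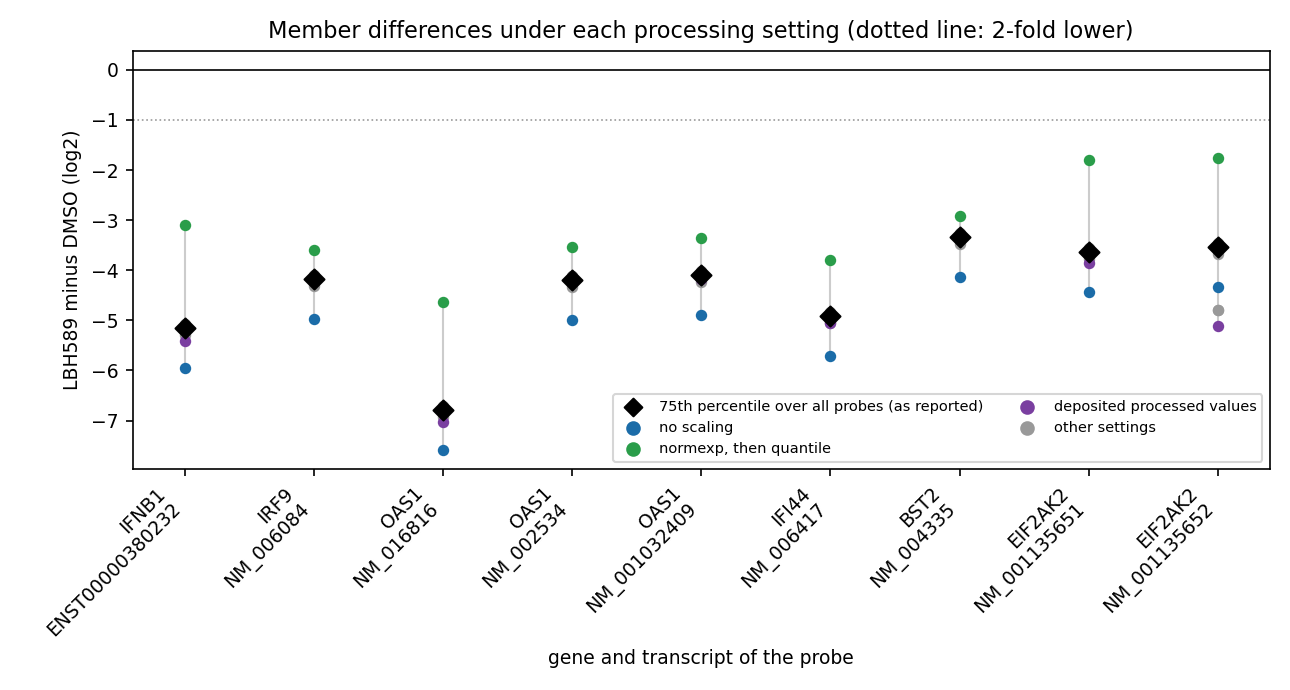
LBH589 minus DMSO difference (log2) of the 9 probes under each processing setting, with the reported value as a black diamond. No scaling (blue) gives the lowest values but for the dim EIF2AK2 probe, normexp followed by quantile normalization (green) gives the values nearest to 0, and all lie below the dotted 2-fold line, between -7.59 and -1.76.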

How the data were processed

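SK-NEP-1 RNA of each condition was hybridized to 1 array. Per the file headers, the deposited scanner files came from Agilent Feature Extraction 11.0.1.1, while the submitters' processing notes give 10.7.3.1. The deposited intensities are processed signals with background subtracted and no scaling between arrays, and the deposited flags are a score of 0 or 1. The authors also deposited a log2 table of 41891 probes, whose normalization is not given in the sources used here.

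Control spots, negative-control probes and spots flagged as outliers (26 on the DMSO array, 37 on the LBH589 array) were left out. The processed signals were set on the log2 scale against the 75th percentile of each array, and LBH589 minus DMSO was taken. A dim side was replaced by its bound. Differences of 2-fold and 5-fold were counted, without a test. The calculation was tested on simulated data, with known changes placed only in probes bright on the DMSO array, so signals near background were little tested. Gene names, isoforms, probe sequences and hg19 positions came from the identity columns of the study's lists of changed transcripts, of which part of the rows was used, and columns of the authors' own fold changes were not used. Motifs were searched in RefSeq promoter windows (GRCh38.p14), in which all 6 genes were matched by symbol.

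The 6 genes, the list of 225 genes and the motifs were chosen with earlier results of these data known. The text names all probes of the 6 genes, each listed gene with a probe in the small roles, the 6 genes with the largest difference in each direction in the antiviral, other stimulated and antigen presentation roles, the noncoding transcripts beside a gene of the list (1 is not reported here), the 5 nearest genes, and the marker genes. Python 3.11.15, pandas 2.3.3 and R 4.3.3 with limma 3.58.1 (normexp, offset 50, on median spot signals, then quantile normalization) were used. Culture, RNA preparation and labeling cannot be told apart from the treatment.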

Additional observations from a re-analysis of the deposited data

How the results depend on the processing

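No paired analysis was possible because each condition has 1 array, and leaving out a replicate was not possible for the same reason. Of 107 values of single probes of the 6 genes under 12 other settings, 87 stayed within the error of the spots, 20 moved beyond it and 0 changed sign. Much of this tally was fixed in advance. Settings that change only filters, bounds, floors or flagged spots can hardly move a probe measured on both arrays. Settings that change only the scaling factor shift all probes alike. The normexp setting used median spot signals, an offset of 50 and then quantile normalization, so it changed 3 steps together. Under it the median of -4.18 became -3.36 and 7 of the 9 probes were at least 5-fold lower. With no scaling the median was -4.98. Over all probes, 4252 were at least 2-fold lower and 684 at least 5-fold lower. These were 2232 and 249 under the normexp setting, and 16249 and 1963 with no scaling. In the deposited table they were 6154 and 1068, or 14.7% and 2.55% of its 41891 probes. Of the other genes of the list, 27 probes were at least 2-fold lower and 6 higher, and these were 17 and 2 when probes dim on either array were dropped, since fewer probes then had a value, and 24 and 4 under the normexp setting. The causes of the other moves were not tested. Scaling by repeated reference probes (median difference 0.14 over 20 probes) and normexp on median spot signals were added after seeing the data. The planned normexp on mean spot signals was not run, since no such column was used here. Dim signals limit IFNB1, OAS1 isoform 1 and EIF2AK2 most, since their LBH589 signals lay near or below the lowest signal well above background.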
